A study of Mus musculus with 6 samples.

Results

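Col10a1-high cells were taken as the cells of Day 10 digits-in-a-dish (DID) cultures that carried at least 20 unique molecular identifiers (UMIs, each marking 1 captured mRNA molecule) of Col10a1, the gene for the alpha chain of collagen X. They numbered 486, with 264 in replicate A and 222 in replicate B. They came out of 16707 Day 10 cells (8350 in A and 8357 in B) and 54126 cells in the whole series, each with at least 3000 UMIs, at most 7500 detected genes and at most 25% of UMIs from mitochondrial genes. DID cultures were started from distal forelimb mesenchyme of CD-1 mouse embryos at embryonic day 11.5, pooled across embryos, dissociated and spotted at high density in medium with fetal bovine serum. Single cells were sequenced with a 10x Genomics 3′ kit at Day 2, Day 7 and Day 10, with replicates A and B from independent cultures at each day (6 libraries). All cells were wild type and all dishes shared the same medium, with no added factor or genetic change in any group. The dishes hold no blood supply, and the number of embryos per pool is not given in the sources used here.

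Within Day 10, the Col10a1-high cells were set against 1256 cells (585 and 671) with at least 2 UMIs of Ihh and fewer than 20 of Col10a1, here the Ihh-positive Col10a1-low cells, and against the 14965 remaining cells (7501 and 7464). Among the remaining cells, 4993 (2496 and 2497) carried at least 5 UMIs of Acan, the gene for the cartilage proteoglycan aggrecan. These served as the other Acan-positive cells. Paired values are given as replicate A, then replicate B. A level is in CPM, the UMIs of a gene per 1000000 UMIs summed over the cells of 1 group in 1 library. Changes are log2 fold changes with their standard error (SE) from edgeR's quasi-likelihood test on those sums, with Benjamini-Hochberg adjusted p over all genes tested and a call at adjusted p under 0.05. The members were thus chosen by their Col10a1 UMIs and the Ihh-positive Col10a1-low cells by both genes. Since Col10a1 and Ihh chose the cells, they are described and were not tested.

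In endochondral bone formation, chondrocytes stop dividing, pass through a prehypertrophic stage marked by Ihh (Indian hedgehog, a secreted signal) and Pth1r (the receptor for the parathyroid hormone-related protein), and then enlarge into hypertrophic chondrocytes. Hypertrophic chondrocytes lay down a collagen X matrix, depend on the transcription factors RUNX2, RUNX3 and MEF2C, and late in life switch on genes of mineralizing matrix such as Ibsp (bone sialoprotein), Spp1 (osteopontin), Alpl (tissue-nonspecific alkaline phosphatase) and Mmp13 (a collagenase). Collagen X is used as their defining marker in the limb.

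Fewer cells carried the cartilage genes of hypertrophic chondrocytes than passed the Col10a1 gate. Col10a1-high cells with at least 20 Acan UMIs, here the Acan-high cells, numbered 199 (123 and 76, or 46.6% and 34.2% of the Col10a1-high cells), and 287 (141 and 146) had fewer, here the Acan-low cells. A median Acan-high cell held 209 and 158 UMIs of Acan and 1303 and 1132 of Col2a1, the main collagen of cartilage, while a median Acan-low cell held 2 and 2 UMIs of Acan and 8 and 10 of Col2a1. Few members lay between, since 13 and 24 carried 10 to 39 Acan UMIs. Median Col10a1 was 70 and 61 UMIs in Acan-high cells and 36 and 36 in Acan-low cells, and the largest counts in 1 cell were 1766 and 730. The division at 20 Acan UMIs was set after the values had been seen, so the sets are described side by side without a test between them, fits that leave 1 set out are given only as alternatives, and all 486 cells are called Col10a1-high, not hypertrophic.

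**Figure D1:**
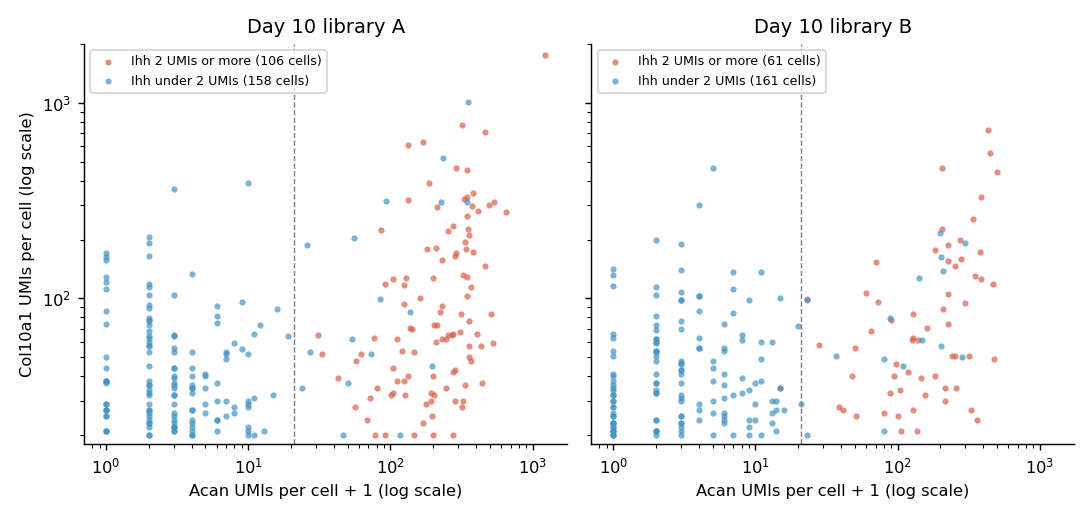
Each point is 1 Col10a1-high cell of Day 10, replicate A on the left and replicate B on the right, with its Acan UMIs plus 1 (x, log axis) and its Col10a1 UMIs (y, log axis), coloured by whether it held at least 2 Ihh UMIs. The dashed line marks 20 Acan UMIs. The 123 and 76 cells on it or to its right held 106 and 60 of the cells with Ihh, and the 141 and 146 to its left held 0 and 1.

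The chondrocyte markers other than Acan (12 genes) summed to 59791 and 51690.4 CPM in Acan-high cells and to 2322 and 2374 CPM in Acan-low cells. For the hypertrophic markers other than Col10a1 (8 genes), the sums were 3268 and 2809.6 CPM against 3289.7 and 3894 CPM, with most of the Acan-low sum from Spp1. Contractile markers (Cnn1, Tagln, Acta2 and Myl9, smooth-muscle-type cytoskeletal genes) summed to 524 and 1186 CPM in Acan-high cells, 5434 and 4672 CPM in Acan-low cells and 5022 and 4919 CPM in the remaining cells. The 5 perichondrium markers, which include Col1a1 and Col3a1, summed to 939.8 and 1148 CPM and 6221 and 5042 CPM, and the 8 osteoblast markers to 3072 and 3359 CPM and 9569 and 8206 CPM. The osteoblast list holds Col1a1 as well, and Col1a2. Its member Ibsp went the other way, as given below, so the sum does not make the Acan-low cells more like osteoblasts. In Acan-low cells Col10a1 thus stood beside collagen I and contractile genes, and the cartilage sum was a small part of that in Acan-high cells. The contractile sums of Acan-low and remaining cells overlapped, so they do not set the Acan-low cells apart from the culture. Perichondrium and osteoblast sums of the remaining cells are not given here. Immune and osteoclast markers (9 genes) summed to 40.9 and 41.1 CPM, 63.8 and 121 CPM and, in the remaining cells, 172 and 228 CPM. Tenocyte markers reached 73.1 and 56.4 CPM and 169.9 and 159 CPM, muscle markers 3.18 and 4.22 CPM and 17.1 and 14.9 CPM, and articular and joint markers 16.4 and 21.4 CPM and 28.3 and 39.6 CPM. Endothelial markers stayed at or below 0.527 CPM in both sets and all 4 erythroid markers were at 0, which allows up to 0.503 and 0.791 CPM in Acan-high and 0.611 and 0.597 CPM in Acan-low cells for each gene (3 counts of the summed UMIs).

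The start regions of 3 genes of the hypertrophic programme are printed next, because Col10a1, Spp1 and Mmp13 are all known targets of RUNX factors. Col10a1 (ENSMUSG00000039462) lies at chr10:34389981-34397085 on the plus strand of GRCm38, inside the longer gene Nt5dc1 (chr10:34288288-34418552, minus strand), whose own level was 10.1 and 10.1 CPM in Col10a1-high cells. Spp1 lies at chr5:104435118-104441050 and Mmp13 at chr9:7272514-7283331, both on the plus strand. The sequences are the 250 bases before the RefSeq start site (GRCm38.p6, plus strand, at chr10:34389731-34389980, chr5:104434861-104435110 and chr9:7272264-7272513 in this order), with the RUNX core motif TGTGGT or its reverse complement ACCACA in capitals.
Col10a1: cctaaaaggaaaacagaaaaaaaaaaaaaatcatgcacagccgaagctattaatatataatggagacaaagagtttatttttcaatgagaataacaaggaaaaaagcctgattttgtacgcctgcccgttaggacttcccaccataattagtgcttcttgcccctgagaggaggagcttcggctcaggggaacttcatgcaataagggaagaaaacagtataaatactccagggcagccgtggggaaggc
Spp1: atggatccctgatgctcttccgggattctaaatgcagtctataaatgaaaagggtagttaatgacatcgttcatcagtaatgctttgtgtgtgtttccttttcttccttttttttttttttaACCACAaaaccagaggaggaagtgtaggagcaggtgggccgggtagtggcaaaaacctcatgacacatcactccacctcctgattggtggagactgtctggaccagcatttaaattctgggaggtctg
Mmp13: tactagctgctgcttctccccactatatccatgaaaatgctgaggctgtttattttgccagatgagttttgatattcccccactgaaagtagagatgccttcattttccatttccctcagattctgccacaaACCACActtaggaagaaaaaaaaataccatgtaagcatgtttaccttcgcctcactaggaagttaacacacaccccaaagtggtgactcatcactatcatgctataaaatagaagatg
The motif stood 1 time in the Spp1 window, beginning 128 bases before the start, and 1 time in the Mmp13 window, beginning 118 bases before it. The Col10a1 window held none, and neither did the windows of another RefSeq start of Spp1 and of Ibsp, which are not printed. Of 32851 RefSeq start sites in the mouse table, 4614 (14.0%) held the motif on either strand in such a window, and a match is given only as a description of these letters.

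The share of Col10a1-high cells was higher at each later day in both replicates. The share was 0.0670% (exact binomial 95% interval 0.0246 to 0.146) and 0.0308% (0.0064 to 0.0900) of Day 2 cells (6 and 3 cells). On Day 7 it was 0.727% (0.565 to 0.921) and 0.736% (0.573 to 0.931), or 68 and 69 cells. Day 10 gave 3.16% (2.80 to 3.56) and 2.66% (2.32 to 3.02), the 264 and 222 members. The intervals of different days did not overlap in either replicate, but they cover counting error only, and with 2 libraries a day the smallest p of a two-sided exact permutation test between 2 days is 0.333. Over all cells of a library, the Col10a1 level of Day 2 was 4.91 and 4.31 CPM, that of Day 7 was 30.5 and 27.3 CPM, and that of Day 10 was 129.8 and 88.0 CPM. With every cell thinned to 3000 UMIs and at least 3 Col10a1 UMIs required, the shares were 0.134% and 0.0616%, 0.748% and 0.544%, and 2.96% and 2.30%. None of the 9 cells past the gate at Day 2 was Acan-high, too few to set a limit, against 7 and 17 of the Day 7 cells (10.3% and 24.6%) and the 123 and 76 of Day 10.

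**Figure D2:**
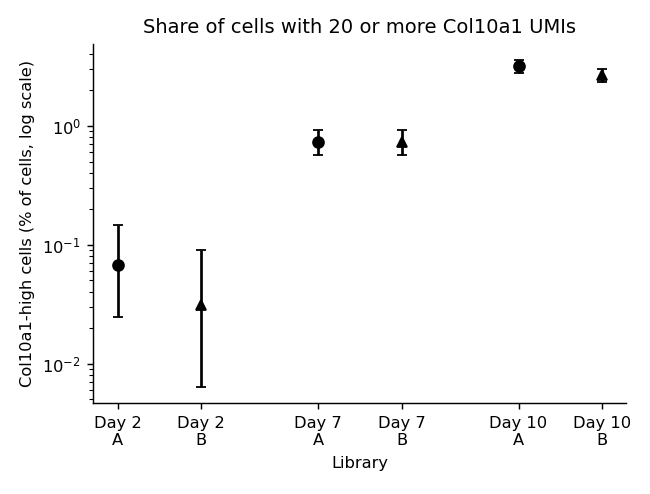
Share of cells with at least 20 Col10a1 UMIs in each of the 6 libraries (y, percent, log axis) at Day 2, Day 7 and Day 10 (x), with replicates A and B apart; bars are exact binomial 95% intervals. The Day 2 shares sit at 0.0670% and 0.0308%, those of Day 7 at 0.727% and 0.736%, and those of Day 10 highest, 3.16% and 2.66%.

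Libraries had a median of 12899 to 29354 UMIs per cell, deepest at Day 10, and no barcode passed the Col10a1 gate in both libraries of any pair. The median Col10a1-high cell held 38693.5 and 36161.5 UMIs, more than the library medians of 29354 and 27884. Acan-high cells were deeper than Acan-low cells (medians of 50076 and 53378.5 against 32361 and 30786 UMIs). Scrublet, a doublet caller, marked 2 and 0 of the 8350 and 8357 Day 10 cells (0.0240% and 0%) at its automatic thresholds of 0.607 and 0.613. Whether it can find doublets in these libraries was not tested, and no doublet was removed beyond the limit of 7500 genes. Both Acan and Tagln were at 20 UMIs or more in 12 (4.55%) and 15 (6.76%) of the members. As a background for Col10a1, 21.4% and 14.0% of all cells with immune markers (131 and 178 cells with at least 5 UMIs of Tyrobp and Fcer1g) held at least 1 Col10a1 UMI at median depths of 20923 and 22092 UMIs, with at most 4 and 27 UMIs in a cell, and 0 and 1 of them passed the gate. Just outside the gate, 58 and 47 cells had 15 to 19 Col10a1 UMIs, 15 and 13 of them with at least 20 Acan UMIs, and just inside it 39 and 40 cells had 20 to 24, 9 and 5 of them with at least 20 Acan UMIs.

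Levels of the genes of the hypertrophic programme differed between the parts of the gate in opposite ways. Col10a1 itself, which chose the cells, was at 3252 and 2186 CPM in Acan-high and 1574 and 1544 CPM in Acan-low cells, against 42.5 and 38.2 CPM in Ihh-positive Col10a1-low and 22.01 and 21.7 CPM in remaining cells. Ibsp was at 1354 and 1435 CPM in Acan-high and 142 and 157 CPM in Acan-low cells. Alpl was at 387 and 366 CPM and 44.2 and 57.5 CPM. Panx3, a channel protein of hypertrophic chondrocytes and osteoblasts, was at 433 and 375 CPM and 5.5 and 11.9 CPM. For these 3 genes the Acan-high values lay far above the Acan-low ones in both replicates, with no overlap. Spp1 went the other way, with 820.3 and 459 CPM in Acan-high and 2927 and 3511 CPM in Acan-low cells. Mmp13 gave no order, at 91.8 and 3.16 CPM in Acan-high and 57.7 and 45.5 CPM in Acan-low cells, so that the 2 replicates of the Acan-high cells stood on either side of the Acan-low ones. It was carried by few cells, as the 5 highest cells held 93.4% of the 548 Mmp13 UMIs of the replicate A Acan-high cells and 100% of the 12 in replicate B, with 314 UMIs in 1 cell. Among Acan-low cells the 5 highest held 86.6% of 283 and 69.9% of 229 UMIs. Vegfa, the signal that draws vessels into hypertrophic cartilage, differed less, at 55.8 and 60.1 CPM and 47.9 and 40.2 CPM.

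**Figure D3:**
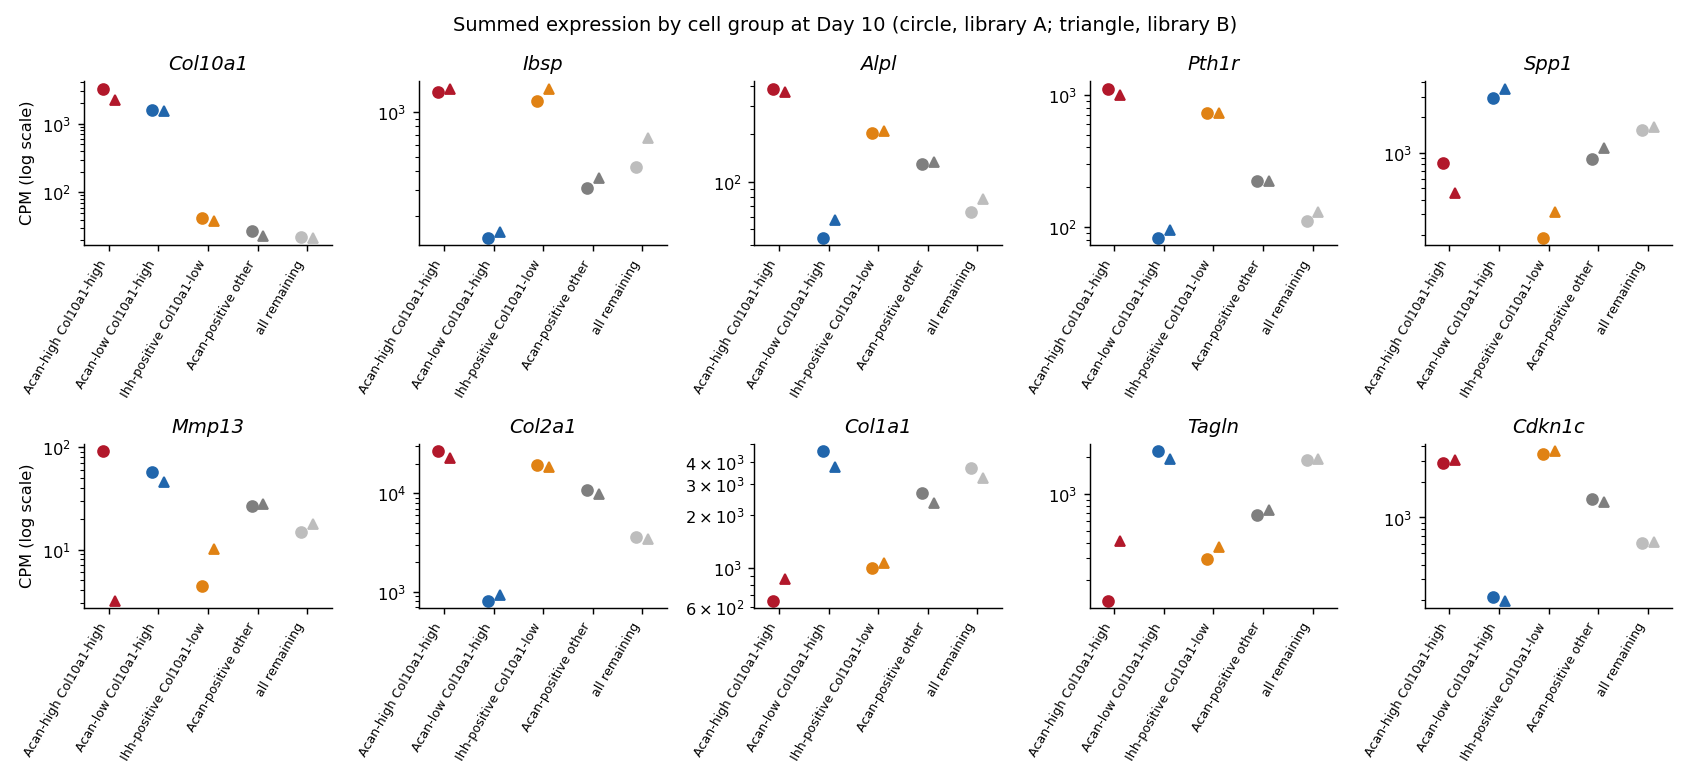
Levels in CPM (y, log axis) of 10 genes in 5 groups of Day 10 cells: Acan-high and Acan-low Col10a1-high cells, Ihh-positive Col10a1-low cells, other Acan-positive cells and all remaining cells; each point is 1 library. Ibsp, Alpl, Pth1r, Col2a1 and Cdkn1c sit higher in Acan-high than in Acan-low cells in both libraries, Spp1, Col1a1 and Tagln sit lower, and the Mmp13 points of the Acan-high cells lie apart at 91.8 and 3.16 CPM.

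The Col10a1-high cells were next split by Ihh, which the rule did not use within them. Cells with at least 2 Ihh UMIs, 106 in replicate A and 61 in replicate B, were compared with the 158 and 161 cells that had fewer. Ihh was at 288 and 281 CPM in the former and 3.45 and 2.09 CPM in the latter, and all but 1 of the Ihh-positive members were Acan-high. Of the Ihh-low members, 17 and 16 were Acan-high, so the Ihh-low sums mix both sets. The split by Ihh thus nearly repeated the division by Acan, and its p-values are no separate evidence for that division. Of 13757 genes, 3182 (23.1%) were called higher in the Ihh-positive members and 3158 (23%) lower, or 46.1% in all. Without TMM factors, which scale libraries to each other, the same test called 1935 higher and 5171 lower, with the median log2 fold change of all genes at -0.31 in place of -0.02. The median of each list below kept its direction under that scaling. Replicates A and B are independent cultures, and each gave both groups, with library as a block. A p thus sets the difference within a library against a spread between 2 cultures, estimated over all groups of the fit. The test also draws that spread toward the spread of other genes (7.96 prior against 3 residual degrees of freedom). It is thus not the spread of the 1 difference alone.

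Of the 8 hypertrophic markers other than Col10a1, 6 rose with Ihh and 1 fell (median log2 fold change 1.17). Ibsp was at 1279.6 and 1565 CPM in Ihh-positive and 347 and 243 CPM in Ihh-low members (log2 fold change 2.54 ± 0.19 SE, adjusted p = 8.62e-07). Alpl, which frees phosphate for mineral, was at 394 and 386 against 74.4 and 84.7 CPM (log2 fold change 2.59 ± 0.09 SE, adjusted p = 1.75e-09). Panx3 was at 456 and 411 against 30.5 and 37.2 CPM (log2 fold change 3.97 ± 0.10 SE, adjusted p = 2.11e-10). In each of these the groups were well apart in both libraries. Smaller rises were called for Runx2, the factor that drives hypertrophy and bone formation (82.8 and 84.1 against 54.4 and 52.02 CPM, log2 fold change 0.94 ± 0.08 SE, adjusted p = 1.86e-06), for its partner in bone Sp7, or osterix (log2 fold change 1.41 ± 0.21 SE, adjusted p = 1.85e-04), and for Vegfa (log2 fold change 0.64 ± 0.11 SE, adjusted p = 5.78e-04). With every cell thinned to 3000 UMIs, Runx2 (0.65, adjusted p = 0.153) and Vegfa (0.77, adjusted p = 0.121) were no longer called. Spp1 was the marker that fell, from 2697 and 3256 CPM in Ihh-low to 819 and 239 CPM in Ihh-positive members (log2 fold change -2.19 ± 0.40 SE, adjusted p = 9.79e-04). Its fold change was -3.55 without replicate A and -1.41 without replicate B. Here, that means that only the sum of the Ihh-positive members of that replicate was left out. In the later comparisons within Day 10 it was the sum of the Col10a1-high cells. The other sums of that replicate stayed in the fit, and the lone sum was assumed to vary like the other groups. Mmp13 was not called, at 99.4 and 0.647 against 54.1 and 41.7 CPM (log2 fold change 0.58 ± 0.67 SE, adjusted p = 0.511). Replicate A set its positive sign, since without replicate A the log2 fold change was -6.09 and without replicate B 1.46.

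Among the signals and their receptors, Pth1r was at 1147 and 1110.4 CPM in Ihh-positive and 167 and 143 CPM in Ihh-low members (log2 fold change 3.15 ± 0.08 SE, adjusted p = 3.14e-10), and Fgfr3, the FGF receptor that slows chondrocyte division, at 385 and 311 and 39.2 and 30.03 CPM (log2 fold change 3.62 ± 0.09 SE, adjusted p = 1.30e-10). All 4 prehypertrophic markers tested rose, but Ihh, which made the split, is itself a prehypertrophic marker, so that direction is no separate result. In contrast, 10 of 12 FGF signalling genes fell and 2 rose. Spry1, a feedback inhibitor of FGF receptors, was among those that fell, at 2.8 and 2.59 against 44.6 and 50.8 CPM (log2 fold change -3.82 ± 0.22 SE, adjusted p = 1.10e-07). The ligand Bmp6 was at 30.4 and 20.05 against 0.544 and 2.27 CPM (log2 fold change 4.46 ± 0.36 SE, adjusted p = 1.66e-06), with no UMI in any Acan-low cell, which allows up to 0.611 and 0.597 CPM there. Other ligands that stood with the Acan-high cells were Wnt4, at 112 and 118 CPM against 4.48 and 2.19 CPM in Acan-low cells, and Wnt5b, at 40.7 and 29.8 against 3.46 and 3.58 CPM. Of 15 WNT signalling genes, 6 rose and 4 fell. Of 22 BMP and TGF-beta genes, 5 rose and 10 fell.

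Regulators known to promote hypertrophy rose in 11 of 14 cases and fell in 2 (median 1.25). Mef2c, a factor needed for hypertrophy, was at 505 and 509.6 CPM in Ihh-positive against 209 and 202 CPM in Ihh-low members (log2 fold change 1.59 ± 0.06 SE, adjusted p = 4.47e-09). Runx3 stood at 47.4 and 42.2 CPM in Acan-high and 11.8 and 15.9 CPM in Acan-low cells. The forkhead genes Foxa2 and Foxa3, which act in chondrocyte hypertrophy, were near 0 in Acan-low cells (Foxa2 at 0 and 0.199 CPM, where 0 allows up to 0.611 CPM, Foxa3 at 0.815 and 1.39 CPM) and stood at 14.1 and 9.49 CPM and 38.04 and 32.96 CPM in Acan-high cells. Of 7 regulators known to hold hypertrophy back, 3 rose and 4 fell.

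Cartilage genes moved together, with 21 of 22 cartilage matrix genes called higher and 1 lower (median 3.54). Nearly all Ihh-positive members were Acan-high, so the direction of cartilage genes follows from the split and is no separate result. Col2a1 was at 27517 and 24533 against 2970.0 and 2790.5 CPM (log2 fold change 3.46 ± 0.05 SE, adjusted p = 1.27e-11), and Matn3, a matrilin of cartilage matrix, at 624 and 492 against 30.1 and 34.9 CPM (log2 fold change 4.38). The median Ihh-low cell held 10 and 12 Col2a1 UMIs, while the 17 and 16 Acan-high cells among them held a median of 552 and 666. Epyc, a small leucine-rich proteoglycan, and Scrg1, a cartilage-enriched secreted protein, had log2 fold changes of 4.54 and 4.67. Genes for building and sulfating proteoglycans rose in 10 of 13 cases and fell in 2. Papss2, which makes the sulfate donor, stood at 172 and 156 CPM in Acan-high and 17.3 and 12.1 CPM in Acan-low cells. Secretion and unfolded protein response genes rose in 24 of 28 cases and fell in 1, most by little (median 0.65), and Hspa5, the chaperone BiP, was at 949.7 and 751 against 797 and 842 CPM (log2 fold change 0.34 ± 0.09 SE, adjusted p = 0.00801). For Hspa5 the groups overlapped, with the Ihh-low value of replicate B above the Ihh-positive one, and the call was lost without TMM factors, without replicate A (log2 fold change 0.13, adjusted p = 0.250), at a gate of 50 UMIs (0.20, adjusted p = 0.278) and at 0.1% of UMIs (0.22, adjusted p = 0.148). Glycolysis and hypoxia genes rose in 17 of 20 cases and fell in 1. Among them, Bnip3, a hypoxia-induced gene of mitochondrial turnover, stood at 704 and 714 CPM in Acan-high and 54.2 and 48.5 CPM in Acan-low cells, and the glucose transporter gene Slc2a1 at 165 and 138 and 27.5 and 22.1 CPM.

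All 23 cell cycle genes fell in the Ihh-positive members (median -2.15). Mki67, a gene of dividing cells, was at 10.8 and 2.26 CPM against 29.4 and 56.9 CPM (log2 fold change -2.18 ± 0.41 SE, adjusted p = 0.00109), with a log2 fold change of -4.11 without replicate A and -1.60 without replicate B. After thinning each cell to 3000 UMIs, a Mki67 or Top2a UMI was found in 3.25% (0.893 to 8.12) and 3.95% (0.822 to 11.1) of Acan-high cells and in 11.3% (6.63 to 17.8) and 20.5% (14.3 to 28.0) of Acan-low cells. Unthinned, the shares were 30.9% and 26.3% against 29.1% and 34.9%. Division inhibitors went separate ways. Cdkn1c, the inhibitor p57 that chondrocytes need to leave the cell cycle, was at 3084 and 3225 against 307 and 447 CPM (log2 fold change 3.36 ± 0.12 SE, adjusted p = 2.12e-09). Cdkn2a, which encodes p16 and ARF and accumulates in cultured fibroblasts, was at 4.48 and 13.6 against 149.8 and 162 CPM (log2 fold change -4.01 ± 0.19 SE, adjusted p = 2.57e-08), or -3.31 without replicate A and -4.80 without replicate B.

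On the Ihh-low side, all 4 contractile and all 5 perichondrium markers were called higher than in the Ihh-positive members. Tagln, the actin-binding protein transgelin, was at 2015 and 1792 CPM in Ihh-low and 114 and 334 CPM in Ihh-positive members (log2 fold change -2.92 ± 0.28 SE, adjusted p = 7.87e-06), or -2.28 without replicate A and -3.76 without replicate B. Col1a1, the collagen of bone and fibrous tissue, was at 4258 and 3493 against 539 and 681 CPM (log2 fold change -2.39 ± 0.11 SE, adjusted p = 2.55e-08). Ly6a, the stem cell antigen Sca-1, and Ccn5, a secreted matricellular protein, had log2 fold changes of -3.79 and -3.90. Sod3, the extracellular superoxide dismutase, was among the steepest falls with -4.24. Of 15 matrix proteases and inhibitors 9 fell and 2 rose, of 10 vascular and osteoclast coupling genes 9 fell and 1 rose, and of 15 IGF and CCN genes 10 fell and 3 rose. Mineralization genes divided, with 5 of 12 higher and 5 lower (4 and 6 without TMM factors). Smpd3, a sphingomyelinase needed for mineralization, stood at 623 and 559.5 CPM in Acan-high and 21.2 and 57.1 CPM in Acan-low cells, while the pyrophosphate transport gene Ank stood at 9.05 and 8.97 and 41.97 and 47.7 CPM.

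Against the Ihh-positive Col10a1-low cells, chosen by the prehypertrophic gene Ihh, the Col10a1-high cells were higher in Spp1, Mmp13 and contractile and perichondrium markers and lower in cartilage matrix genes. At least 20 Acan UMIs were held by 529 of 585 and 607 of 671 Ihh-positive Col10a1-low cells. Among the members it was 123 of 264 and 76 of 222. The direction of cartilage, contractile and perichondrium genes thus goes with how the groups were chosen and is no separate result. Of 14410 genes, 2615 (18.1%) were called higher and 2275 (15.8%) lower, 33.9% in all. Without TMM factors the calls were 4019 higher and 1259 lower, and the median log2 fold change of all genes was 0.14 in place of 0.00455. Spp1 was at 1771 and 2199 CPM in Col10a1-high and 189 and 313 CPM in Ihh-positive Col10a1-low cells (log2 fold change 2.87 ± 0.13 SE, adjusted p = 1.65e-05). Mmp13 was at 76.4 and 27.3 against 4.42 and 10.2 CPM (log2 fold change 2.69 ± 0.51 SE, adjusted p = 0.00651), or 1.56 without replicate A and 3.45 without replicate B. Few cells carried Mmp13, and its replicate B level in Acan-high cells, given above, lay below that of the Ihh-positive Col10a1-low cells. The chemokine gene Cxcl12, at 129 and 134 against 16.5 and 19.3 CPM, and Ly6a, at 98.8 and 126 against 12.95 and 12.5 CPM, rose by log2 fold changes of 2.74 and 3.003, but neither was called with Acan-high cells only (0.37, adjusted p = 0.238, and 0.14, adjusted p = 0.727). Tagln rose from 298 and 367 CPM to 1078 and 1281 CPM (log2 fold change 1.69 ± 0.06 SE, adjusted p = 1.03e-05), and its value with Acan-high cells only was -0.35. All 4 contractile and all 5 perichondrium markers were called higher. Of 22 cartilage matrix genes 18 were called lower and 0 higher, and 19 of 23 cell cycle genes were called higher and 0 lower. With Acan-high cells only, 11 of 21 cartilage matrix genes were called higher and 4 lower, 0 of 23 cell cycle genes higher and 7 lower, and 0 of 4 contractile markers either way. Those cells were chosen by Acan, a cartilage gene, so the direction of cartilage genes in that fit is no result. Mki67 was called higher with all members (0.73) and lower with Acan-high cells only (-0.78, adjusted p = 0.0328), and its call was lost without replicate B (0.32), at gates of 50 UMIs (0.26) and 0.1% of UMIs (0.31) and after thinning (0.57). Of the 8 hypertrophic markers 2 were higher and 5 lower. Ibsp was lower, at 807 and 706 against 1183 and 1423 CPM (log2 fold change -0.90 ± 0.16 SE, adjusted p = 0.00523), a call lost at a gate of 50 UMIs (-0.29, adjusted p = 0.214), at 0.1% of UMIs (-0.49, adjusted p = 0.128) and at an Ihh gate of 5 UMIs (-0.41, adjusted p = 0.182). Alpl was not called, at 232 and 190.2 against 204 and 209 CPM (log2 fold change -0.10 ± 0.12 SE, adjusted p = 0.564). Its sign turned in 5 settings, among them Acan-high cells only (0.91, adjusted p = 4.18e-06), and it was called lower in 4 others, among them no replicate A (-0.34), no cells over 50000 UMIs (-0.63) and Acan-low cells only (-2.27). Among the steepest falls was that of Ifitm5, an osteoblast membrane protein of mineralizing bone, at 0.644 and 6.24 against 39.3 and 41.96 CPM (log2 fold change -3.82, or -3.07 without replicate A and -5.86 without replicate B).

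That comparison depended on which members entered it. With the Acan-high cells only, a choice made after the data had been seen, 1361 genes were called higher and 1016 lower, and the genes called the same way with all members were 18.6% of the 2615 higher and 21.5% of the 2275 lower ones (35.7% and 48.2% of the restricted calls). Another 188 and 215 were called the opposite way. With the Acan-low cells only (3702 higher and 3536 lower), 93.1% and 91.9% were called again in the same direction (65.7% and 59.1% of the restricted calls). By level, Acan-high cells stood above the Ihh-positive Col10a1-low cells in Hapln1, a link protein of cartilage (5553 and 4666 against 2615 and 2331 CPM), Comp, a cartilage thrombospondin (5305 and 4698 against 3296 and 2997 CPM), Alpl (387 and 366 against 204 and 209 CPM), Pth1r (1118 and 996 against 732 and 725 CPM) and Mef2c (499 and 471 against 361 and 350.5 CPM). Acan chose the Acan-high cells (median 209 and 158 Acan UMIs, against 82 and 73 in Ihh-positive Col10a1-low cells), so the higher cartilage genes Hapln1 and Comp are no result. Ibsp, at 1354 and 1435 CPM, overlapped with the 1183 and 1423 CPM of the Ihh-positive Col10a1-low cells. Ihh was at 259.8 and 231 CPM in Acan-high cells and 205 and 204 CPM in the Ihh-positive Col10a1-low cells, which it chose.

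Against the other Acan-positive cells, taken at 5 Acan UMIs outside both gates, 2448 of 15774 genes (15.5%) were called higher in Col10a1-high cells and 2188 (13.9%) lower, 29.4% in all. Of the other Acan-positive cells, 1271 of 2496 and 1189 of 2497 reached the 20 Acan UMIs that divide the members. The rest held as few Acan UMIs as some Acan-low members. With Acan-high cells only, 60.2% of the higher and 59.7% of the lower calls were found again, and 351 and 123 were called the opposite way. With Acan-low cells only, 58.1% and 57.6% were found again, and 292 and 28 were called the opposite way. Ibsp was at 807 and 706 against 307 and 359 CPM (log2 fold change 1.20 ± 0.17 SE, adjusted p = 8.98e-04), Alpl at 232 and 190.2 against 129.9 and 133 CPM (log2 fold change 0.69 ± 0.14 SE, adjusted p = 0.0071, or 0.42 and adjusted p = 0.0630 without replicate A and 0.27 and adjusted p = 0.302 without cells over 50000 UMIs) and Spp1 at 1771 and 2199 against 885 and 1096 CPM (log2 fold change 1.002 ± 0.11 SE, adjusted p = 3.16e-04). With Acan-low cells only, Ibsp (-1.27) and Alpl (-1.48) were called lower than in the other Acan-positive cells, and with Acan-high cells only the value of Spp1 was -0.43. Of the 8 hypertrophic markers 4 were called higher and 2 lower, and of 13 mineralization genes 7 higher and 2 lower. Mmp13 was at 76.4 and 27.3 against 26.9 and 27.96 CPM and was not called (log2 fold change 0.96 ± 0.37 SE, adjusted p = 0.0807). Without replicate A its log2 fold change was -0.19 and without replicate B 1.64 (adjusted p = 2.59e-04), and other settings called it higher as well, such as a gate of 50 UMIs (1.55, adjusted p = 0.00573). Targets of hedgehog signalling stood lower. Ptch1, the receptor and target gene, was at 59.3 and 55.8 against 147 and 157 CPM (log2 fold change -1.39 ± 0.15 SE, adjusted p = 1.96e-04). Gli1, its other classic target, was at 2.57 and 3.29 against 8.39 and 10.03 CPM (log2 fold change -1.66 ± 0.19 SE, adjusted p = 3.03e-04), and Hhip, the hedgehog-binding inhibitor, at 4.51 and 5.1 against 17.3 and 18.2 CPM (log2 fold change -1.89 ± 0.14 SE, adjusted p = 2.67e-05). Ptch1 stood below the other Acan-positive cells in both sets of members, at 65.5 and 63.3 CPM in Acan-high and 51.7 and 50.1 CPM in Acan-low cells. In all, 7 of 14 hedgehog and PTHrP genes were called lower and 2 higher. Cell cycle genes were lower in 18 of 23 cases and higher in 0, with Mki67 at 20.2 and 37.8 against 51.3 and 62.6 CPM (log2 fold change -1.01 ± 0.15 SE, adjusted p = 0.00129), a call lost when the other cells needed 20 Acan UMIs (-0.40, adjusted p = 0.113) and with Acan-low cells only (-0.39, adjusted p = 0.0922). All 4 contractile markers were called higher. Their sums, given above, stood far lower in Acan-high than in Acan-low members, and the comparison cells were chosen by Acan, a cartilage gene. The direction of the contractile markers is thus no separate result.

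Of the largest rises over the other Acan-positive cells, the 3 described next stood high in the Acan-high members and low in the Acan-low ones, a choice made after their values were seen, while Ly6a, also among the 10 largest, was at 16.1 and 9.49 CPM in Acan-high and 199 and 214 CPM in Acan-low cells. Slc43a2, an amino acid transporter, was at 62.01 and 46.4 CPM in Acan-high, 1.43 and 3.78 CPM in Acan-low and 3.47 and 3.41 CPM in other Acan-positive cells (log2 fold change of all members 3.05). Wnk4, a kinase that controls ion cotransporters, was at 52.1 and 48.3, 1.83 and 0.597 and 3.62 and 3.13 CPM in the same order (log2 fold change 2.90). Loxl4, a lysyl oxidase that links collagens, was at 231 and 235, 4.69 and 2.78 and 25.6 and 23.3 CPM (log2 fold change 2.24). Each of the 3 was also higher in Acan-high than in Ihh-positive Col10a1-low cells, where the levels were 12.8 and 11.3 CPM for Slc43a2, 12.2 and 11.3 CPM for Wnk4 and 61.2 and 56.7 CPM for Loxl4. Among the steepest falls were those of Sfrp5, a WNT antagonist (-2.67), Ucma, a vitamin K-dependent cartilage matrix protein (-2.36), and Matn4, a matrilin (-1.65).

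**Figure D4:**
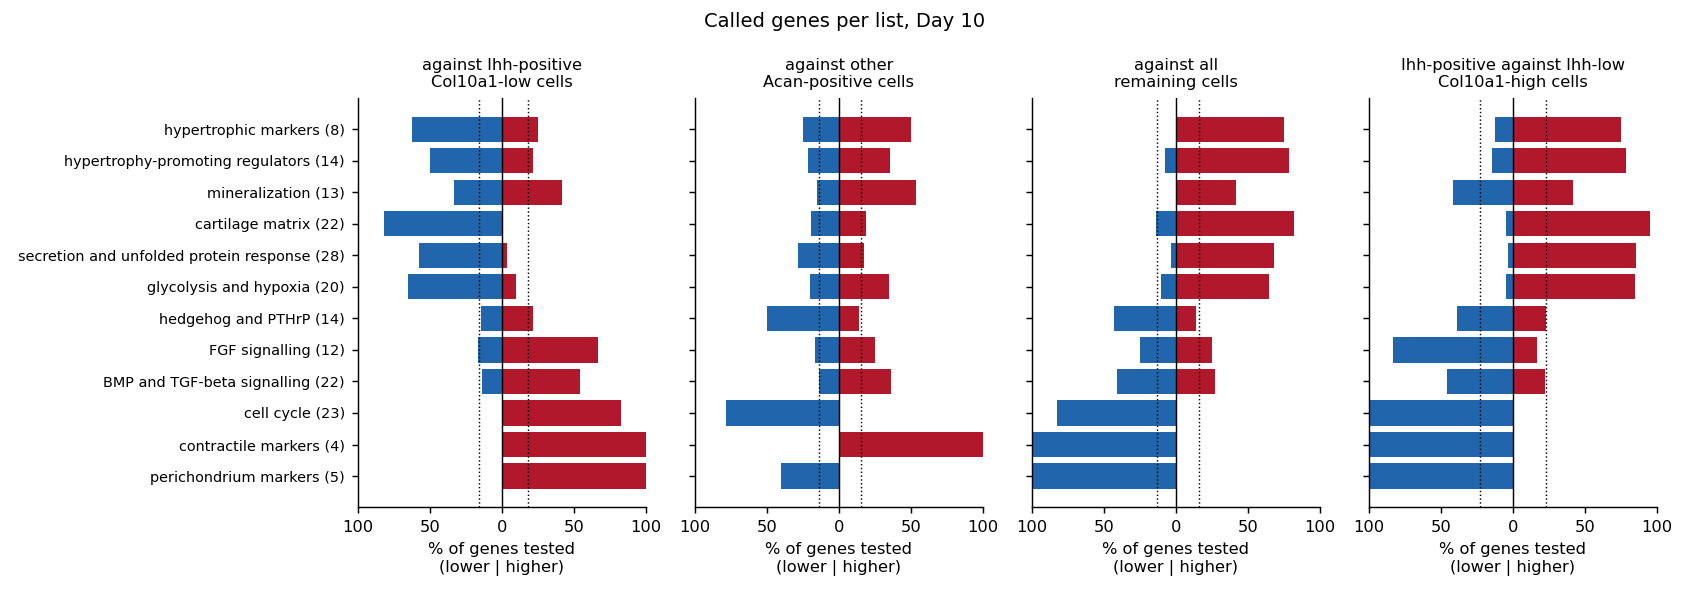
Percent of the tested genes of 12 lists called higher (to the right) or lower (to the left) in Col10a1-high cells against Ihh-positive Col10a1-low cells, other Acan-positive cells and all remaining cells, and in Ihh-positive against Ihh-low Col10a1-high cells; dotted lines give the percent over all genes tested. Cell cycle genes were called lower in 18 of 23, 19 of 23 and 23 of 23 cases in the last 3 comparisons and higher in 19 of 23 in the first.

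Against all remaining cells, 2285 of 14410 genes (15.9%) were called higher and 1858 (12.9%) lower, 28.8% in all. Without TMM factors 1785 were higher and 2583 lower, and without replicate A 1153 were lower. Cartilage matrix genes were higher in 18 of 22 cases and lower in 3, the hypertrophic markers higher in 6 of 8 and lower in 0, and the promoting regulators higher in 11 of 14 and lower in 1. Alpl was at 232 and 190.2 against 64.5 and 78.2 CPM (log2 fold change 1.64 ± 0.12 SE, adjusted p = 1.13e-04), Pth1r at 650.4 and 482 against 112 and 128 CPM (log2 fold change 2.30 ± 0.13 SE, adjusted p = 4.73e-05) and Mmp13 at 76.4 and 27.3 against 14.8 and 17.8 CPM (log2 fold change 1.76 ± 0.41 SE, adjusted p = 0.0176). Without replicate A the rise of Mmp13 was 0.60 (adjusted p = 0.0781). Ibsp rose by less, at 807 and 706 against 425 and 668 CPM (log2 fold change 0.57 ± 0.16 SE, adjusted p = 0.0374), a call lost without replicate A (0.23, adjusted p = 0.115) and in other settings, among them no library block (adjusted p = 0.0827) and no cells over 50000 UMIs (0.074, adjusted p = 0.833), and Spp1, at 1771 and 2199 against 1557 and 1654 CPM, was not called (log2 fold change 0.36 ± 0.12 SE, adjusted p = 0.0639). Spp1 was called higher at a gate of 50 UMIs (0.46, adjusted p = 0.0162), at 0.1% of UMIs (0.59, adjusted p = 0.0146) and without cells over 50000 UMIs (1.01, adjusted p = 2.67e-04). Both genes were thus well expressed outside the Col10a1 gate. Cell cycle genes were lower in 19 of 23 cases and higher in 0, with Mki67 at 20.2 and 37.8 against 49.9 and 55.7 CPM (log2 fold change -0.84 ± 0.16 SE, adjusted p = 0.00786). The fall of Mki67 was -0.49 without replicate A and -1.25 without replicate B, and its call was lost without cells over 50000 UMIs (-0.60, adjusted p = 0.0504), where 7 of the 23 genes were called lower, and with Acan-low cells only (-0.23, adjusted p = 0.449), where 1 was called lower and 1 higher. Cdkn1c rose (log2 fold change 1.39 ± 0.07 SE, adjusted p = 2.52e-05). With Acan-low cells only, the majority of the members, Alpl (-0.54), Pth1r (-0.48), Cdkn1c (-1.63) and Ibsp (-1.89) were called lower than in the remaining cells, and with Acan-high cells only Spp1 was (-1.09). Of 12 genes of the response to dissociation, such as Fos, 8 were lower and 1 higher. Of the same 12, 8 were lower and 2 higher against other Acan-positive cells, 2 lower and 2 higher against Ihh-positive Col10a1-low cells, 8 lower and 1 higher in Ihh-positive against Ihh-low members, and 6 higher and 0 lower at Day 10 against Day 7, and their part in the results was not tested. Of 9 immune and osteoclast markers 8 were lower, led by Tyrobp (-3.44, or -2.72 without replicate A and -5.32 without B), and the articular Prg4 (-2.88) and tendon Tnmd (-2.84, or -2.12 without A and -3.80 without B) were also among the steepest falls. With Acan-low cells only, 821 genes were called higher and 811 lower, 320 and 334 of the calls with all members were found again in the same direction (38.98% and 41.2% of the restricted calls), and 258 and 57 were called the opposite way.

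Along the range of Col10a1, cells were placed in bins of 0, 1 to 4, 5 to 19, 20 to 49, 50 to 99 and at least 100 Col10a1 UMIs, apart for cells with at least 20 Acan UMIs and with fewer, and over all Day 10 cells. Since Col10a1 orders the bins, the values are a description. Among cells with at least 20 Acan UMIs, Hapln1 was at 1987 and 1800.3 CPM in the lowest bin and 6374 and 5092 CPM in the highest. Ibsp went from 309 and 312 CPM to 1770.2 and 1457 CPM, and Alpl from 122 and 125 CPM to 441 and 408 CPM. Pth1r, a prehypertrophic marker, stayed high to the top of the range, at 389 and 396 CPM in the lowest and 1124 and 986 CPM in the highest bin. Mki67 was at 22.9 and 31.3 CPM in cells without Col10a1 and between 3.18 and 14.96 CPM (A) and between 4.18 and 5.90 CPM (B) past the gate. Among cells with fewer than 20 Acan UMIs, Spp1 went from 1743 and 1849.6 CPM to 3362 and 9134 CPM and Cxcl12 from 96.8 and 95.5 CPM to 445 and 298 CPM, though that top bin held 16 and 17 cells. Without it, in the bin of 50 to 99, Spp1 was at 3431 and 3099 CPM and Cxcl12 at 280.1 and 252 CPM.

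**Figure D5:**
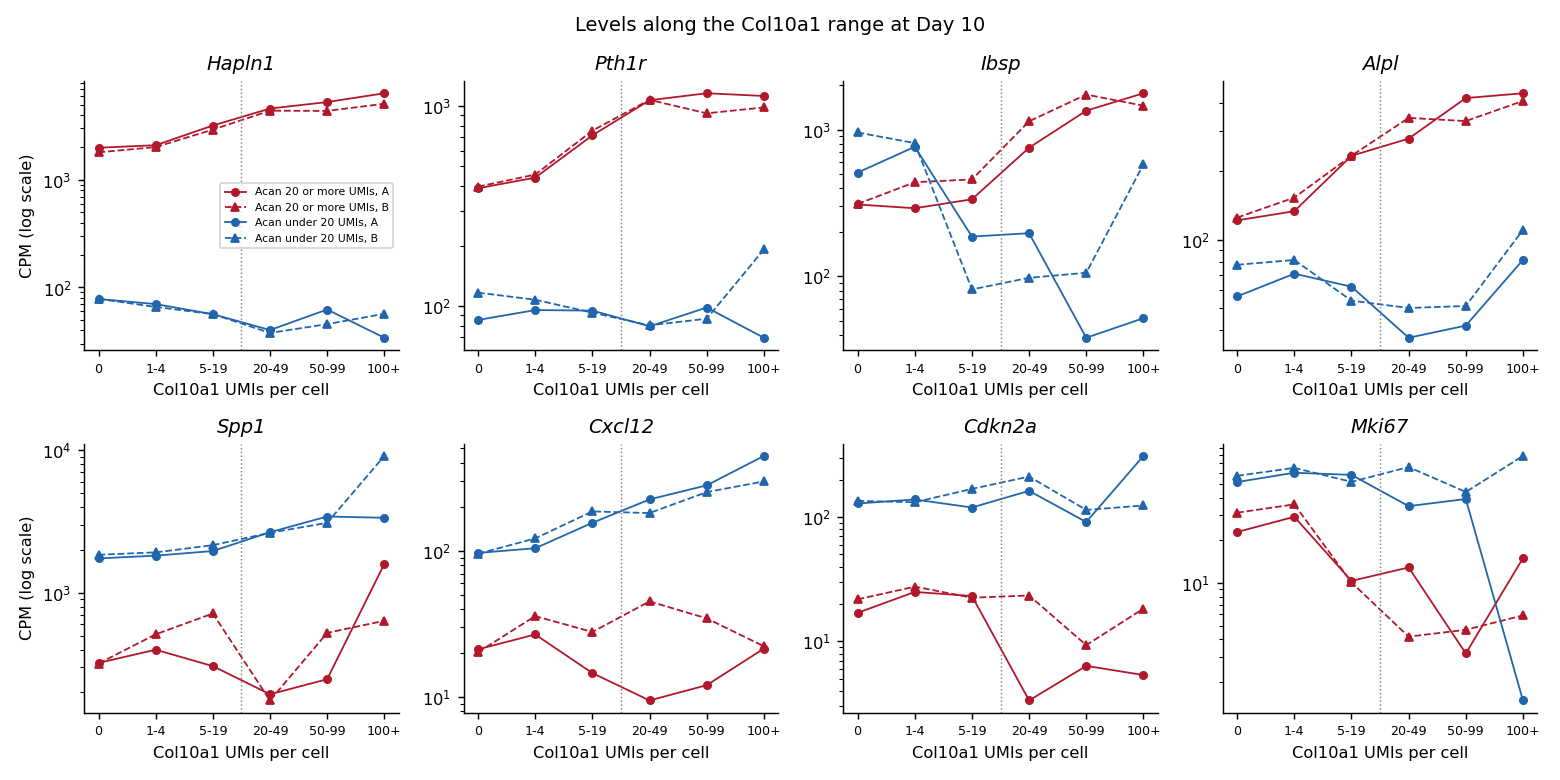
Levels in CPM (y, log axis) of 8 genes over bins of Col10a1 UMIs (x) in all Day 10 cells, red for cells with at least 20 Acan UMIs and blue for cells with fewer, solid for replicate A and dashed for replicate B; the dotted line marks the gate of 20 Col10a1 UMIs. Hapln1, Pth1r, Ibsp and Alpl end higher than they start on the red lines, and Cxcl12 does so on the blue ones, where the last bin holds 16 and 17 cells.

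Cells past the same gate at Day 7 (68 and 69) gave the change with time. Of 11807 genes, 858 (7.27%) were called higher at Day 10 and 997 (8.44%) lower, 15.7% in all. Without the Day 7 library of replicate A the calls were 326 and 318. Ibsp was at 807 and 706 CPM at Day 10 and 10.5 and 5.47 CPM at Day 7 (log2 fold change 6.62 ± 0.22 SE, adjusted p = 8.92e-07), and Alpl at 232 and 190.2 and 10.1 and 11.7 CPM (log2 fold change 4.33 ± 0.18 SE, adjusted p = 4.40e-06). Panx3 (log2 fold change 2.82 ± 0.28 SE, adjusted p = 4.98e-04, or 3.49 without Day 7 replicate B), Pth1r (log2 fold change 2.96 ± 0.17 SE, adjusted p = 3.68e-05) and Sp7 (log2 fold change 2.36 ± 0.24 SE, adjusted p = 5.03e-04) rose as well, so that 7 of 8 hypertrophic markers and all 5 prehypertrophic markers, among them Ihh, which chose no cells in this comparison, were called higher and 0 lower. Spp1 was the exception, at 1771 and 2199 and 2345 and 1739 CPM (log2 fold change 0.02 ± 0.15 SE, adjusted p = 0.961). Mmp13 was at 76.4 and 27.3 and 0.748 and 14.2 CPM (log2 fold change 2.84 ± 0.70 SE, adjusted p = 0.025), or 1.90 without Day 7 replicate A (adjusted p = 0.173), 6.19 without Day 7 replicate B and 1.90 without Day 10 replicate A, with 78.9% and 66.4% of its Day 10 UMIs in 5 cells of each library. Of 22 cartilage matrix genes 18 were higher and 0 lower, with Col2a1 at 15073 and 10414 against 2366 and 4270.1 CPM (log2 fold change 1.99 ± 0.27 SE, adjusted p = 0.00195). Mki67 was lower (log2 fold change -1.30 ± 0.25 SE, adjusted p = 0.00845, or -1.18 and adjusted p = 0.0609 without Day 7 replicate B), as were 7 of 23 cell cycle genes, with 0 higher. The call of Mki67 was also lost after thinning (-1.48, adjusted p = 0.0879) and with Acan-low cells only (-0.87, adjusted p = 0.0693). Markers of other cell types moved too, with all 4 contractile markers called lower (median -1.04), and 2 of 4 articular and 2 of 5 perichondrium markers lower and 0 higher, and their part in the changes was not tested.

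The share of Acan-high cells past the gate was 10.3% and 24.6% on the earlier day and 46.6% and 34.2% on the later one, and its part in these changes was not tested apart from the following restriction. With Acan-low cells only, 295 genes were called higher and 476 lower, of which 187 and 399 were among the 858 and 997 calls with all members. In Acan-low cells Ibsp stood at 142 and 157 CPM at Day 10 and 3.73 and 4.73 CPM at Day 7, so its level was higher at Day 10 without the Acan-high cells as well. Both Day 10 values lay below those given above for the remaining Day 10 cells, and whether the rise was particular to the members was not tested. Col2a1 did not keep its rise in that restriction (log2 fold change -0.20, adjusted p = 0.431), and neither did Panx3 keep its call (1.88, adjusted p = 0.0568). The restriction left out cells with much Acan on both days, so the value of Col2a1, another cartilage gene, is no result. A difference between whole libraries stood beside this comparison. Gm42418, a gene model that overlaps ribosomal RNA sequence, was at 2239 and 1789 CPM in Day 10 members and 12735 and 16234 CPM in Day 7 members, and at 2404 and 2381 against 28746 and 31342 CPM in the remaining cells of the same libraries. The histone gene Hist1h2ap (-5.06, or -5.91 without Day 10 replicate A) was among the steepest falls in the members. Day and library cannot be told apart here.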

How the data were processed

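The deposited values were raw UMI counts per gene and barcode from the authors' 10x Genomics 3′ libraries. The submitters' processing notes name Cell Ranger 6.1.2, STAR, Seurat 4.1.0 and the mouse build GRCm38 (mm10). Members and gene lists were chosen with earlier results of these data known. Cells were kept at 3000 UMIs or more, 7500 genes or fewer and a mitochondrial share of 25% or less, and no cell annotation was used. Raw counts were summed per library and cell group and tested in edgeR 4.0.16 (R 4.3.3) with TMM factors, filterByExpr and glmQLFTest. The library entered as a block for groups of the same library and was left out between days, where A and B only share a letter (correlation of their A minus B differences between Day 10 and Day 7 members -0.055 over 5509 genes, with 0.175 for the Ihh-positive Col10a1-low and 0.185 for the remaining cells). Between groups of one Day 10 library the same correlation was 0.433 (members and Ihh-positive Col10a1-low cells), 0.372 (members and remaining cells) and 0.069 (Ihh-positive and Ihh-low members). Col10a1, Ihh and, where it chose cells, Acan were removed before each fit that they chose cells for. Standard errors are the log2 fold change divided by the square root of the F statistic. Named genes were members of the lists, or the 10 largest rises and falls among called genes with both libraries moving the same way and at least 20 CPM in the higher group, and 2 genes that this rule names are not reported here. The fits were tested on simulated counts. DESeq2 1.42.0, other gates, other filters, thinning and leaving out 1 sum were tried as alternatives, and the restrictions by Acan and the omission of TMM factors were added after seeing the data. Python 3.11.15 with numpy 2.4.6, pandas 2.3.3, scipy 1.17.1, scanpy 1.11.5 and matplotlib 3.10.9 did the rest.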

Additional observations from a re-analysis of the deposited data

Results flagged for a closer look

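For 3 hypertrophic markers the Ihh-positive and the Ihh-low Col10a1-high cells stood on opposite sides of the remaining cells in both replicates, and the test between them gave a log2 fold change of 2.54 for Ibsp, -2.19 for Spp1 and 3.97 for Panx3 (edgeR adjusted p = 8.62e-07, 9.79e-04 and 2.11e-10).

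The limit of 7500 genes left out 63 and 71 Day 10 barcodes with at least 20 Col10a1 UMIs, which enter no comparison. Their median depth was 106605 and 114402 UMIs, and 37 and 50 of them had at least 20 Acan UMIs. Both Acan and Tagln reached 20 UMIs in 28 (44.4%) and 45 (63.4%) of them, against 12 (4.55%) and 15 (6.76%) of the cells kept.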

How the results depend on the processing

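The counts given are genes called higher, then lower. The restrictions to Acan-high or Acan-low cells and the fits without TMM factors were chosen after seeing the data. Against Ihh-positive Col10a1-low cells, the 2615 and 2275 calls became 4019 and 1259 without TMM factors, 1444 and 1294 at a gate of 50 Col10a1 UMIs, 800 and 751 after thinning to 3000 UMIs, 1361 and 1016 with Acan-high cells only, and 3536 lower with Acan-low cells only. Against all remaining cells, 2285 and 1858 became 1211 lower with DESeq2, 979 and 808 without cells over 50000 UMIs, 458 and 290 after thinning, 3721 and 3998 with Acan-high and 821 and 811 with Acan-low cells only. Against other Acan-positive cells, thinning gave 725 and 595. Between Ihh-positive and Ihh-low members, the calls were 1935 and 5171 without TMM factors, 1978 and 1973 without cells over 50000 UMIs and 853 and 754 after thinning. Between the days they were 295 and 476 with Acan-low cells only and 88 and 58 after thinning. The restrictions chose cells by Acan, a cartilage gene, so the direction of cartilage genes in them is no result. Thinning and the restrictions leave fewer UMIs or cells; otherwise the cause was not tested. Leaving out 1 sum gave 2230 to 2530 and 1923 to 2158 calls against Ihh-positive Col10a1-low cells, 1651 to 2258 and 1153 to 2025 against all remaining cells, 1892 to 1894 and 1491 to 1807 against other Acan-positive cells, 2127 to 2608 and 2270 to 2687 by Ihh, and 326 to 847 and 318 to 937 between the days. The lone sum is there assumed to vary like the other groups.

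Without the replicate block the calls were 2442 and 2013 against Ihh-positive Col10a1-low cells, 1930 and 1517 against remaining cells, 1943 and 1679 against other Acan-positive cells, and 3121 and 3143 by Ihh. With a replicate block they were 776 and 914 between the days. Among the named genes, only the call of Ibsp against remaining cells changed with the block.

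Day 2 shares of Col10a1-high cells were 0.279% and 0.123% at a gate of 10 UMIs and 0 and 0 at 50 UMIs, which allows up to 0.0335% and 0.0308% (3 cells of the total). Day 7 shares were 1.49% and 1.31% at 10 UMIs, 0.267% and 0.224% at 50 UMIs, 0.556% and 0.459% at 0.1% of UMIs, and in replicate B 0.544% after thinning. Day 10 shares were 5.01% and 4.49%, 1.60% and 1.17%, 2.41% and 1.83%, and in replicate B 2.30%. The order of the days held at each of these gates in both replicates.

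Over 1802 refits of 144 pairs of a named gene and a comparison, 1682 kept direction and side of the threshold, 58 lost the call, 20 gained one and 42 changed sign. The call of Ibsp against Ihh-positive Col10a1-low cells was lost at 50 UMIs (-0.29), at 0.1% of UMIs (-0.49) and at an Ihh gate of 5 UMIs (-0.41). Against remaining cells, Ibsp was also lost with DESeq2 (0.56), without TMM factors (0.51) and at 10 UMIs (0.10), Mmp13 with DESeq2 (1.73) and Mki67 without cells over 50000 UMIs (-0.60) and with Acan-low cells only (-0.23), while Spp1 was called higher after thinning (0.83), with Acan-low cells only (0.94), without a filter on low counts (0.33) and in the settings named with its value. Against other Acan-positive cells, Mki67 was lost at 20 Acan UMIs (-0.40) and with Acan-low cells only (-0.39), and Mmp13 was called higher at 50 UMIs (1.55), at 0.1% of UMIs (1.71), without cells over 50000 UMIs (1.08), after thinning (1.34), at 20 Acan UMIs (1.97), with Acan-low cells only (0.80) and without a filter on low counts (0.95). Thinning ended the calls of Runx2 (0.65) and Vegfa (0.77) by Ihh and of Mmp13 (2.79) and Mki67 (-1.48) between the days. With Acan-high cells only, the log2 fold changes against Ihh-positive Col10a1-low cells that changed sign were those of Ccn5 (-0.35), Sod3 (-0.14), Ibsp (0.14), Alpl (0.91), Col2a1 (0.42), Mki67 (-0.78), Vegfa (0.11) and Tagln (-0.35). For Alpl in that comparison the sign also changed without replicate B (0.12, and -0.34 without replicate A), without TMM factors (0.042), at 50 UMIs (0.36) and at 0.1% of UMIs (0.16), and it was called lower without replicate A, at 10 UMIs (-0.33), without cells over 50000 UMIs (-0.63) and with Acan-low cells only (-2.27). With Acan-low cells only, sign changes against remaining cells were Wnk4 (-0.32), Loxl4 (-1.51), Fxyd3 (-1.72), Fam89a (-2.27), Slc43a2 (-0.32), Atp6v0a4 (-1.64), Enpp2 (-2.17), Serinc5 (-1.13), Ibsp (-1.89), Alpl (-0.54), Pth1r (-0.48) and Cdkn1c (-1.63), and against other Acan-positive cells Slc43a2 (-0.50), Wnk4 (-1.59), Isg20 (-0.039), Loxl4 (-2.82), Pcsk6 (-0.90), Fxyd3 (-3.30), Ibsp (-1.27) and Alpl (-1.48). With Acan-high cells only they were Spp1 against remaining cells (-1.09) and Ly6a (-1.01) and Spp1 (-0.43) against other Acan-positive cells. Mmp13 changed sign without replicate A against other Acan-positive cells (-0.19, and 1.64 without replicate B) and by Ihh (-6.09, and 1.46 without replicate B), and by Ihh after thinning (-0.46). Between the days, Sgms2 (-0.22) and Col2a1 (-0.20) did so with Acan-low cells only, and Spp1 without Day 10 replicate B (-0.14) or Day 7 replicate B (-0.15), against 0.21 without Day 7 replicate A. The cause was not tested.

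Each group rests on 2 libraries a day. Cell size was not measured, and no protein or histology enters these values. The Col10a1 gate is in raw UMIs and was not scaled to depth, except at 0.1% of UMIs. Doublets were not removed, and their part in the results was not tested.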
